A study of Mus musculus with 4 samples.

Results

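The neurons described here are excitatory cortical neurons of the embryonic mouse that carried UMIs of both Unc5d, a netrin and FLRT receptor, and Sema3c, a secreted semaphorin. A UMI is a molecular tag that counts 1 captured RNA molecule. A barcode was a member with at least 3 UMIs of Unc5d, at least 1 of Sema3c and of the cortical neuron factor Neurod6, none of the interneuron gene Gad2, at most 1 each of Neurod1, Eomes and Hs3st4, and at most 1 of Krt8, Cytl1 and Lbhd2 together. These conditions were met by 2699 of 28672 barcodes that had at least 1000 UMIs, at least 500 genes and at most 10% mitochondrial UMIs. Unc5d, Sema3c and the other genes of these conditions chose the cells, so their levels are a description and none of them was tested.

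Rostral neocortex was collected on embryonic day E15.5 and dissociated with papain, and 4 libraries of 3′ single-cell RNA were made, 2 per group. The i4F-Nes embryos had the genotype Nestin-Cre;i4F;ROSA-STOP-rtTA, in which a doxycycline-driven cassette of the Yamanaka reprogramming factors can be switched on where the Nestin promoter has driven Cre. The littermate controls (CTR) had i4F;ROSA-STOP-rtTA without Nestin-Cre. Pregnant females of both groups were given doxycycline at 0.2 mg/ml in their water over 4 days that began at E10.5 and ended at E14.5, so the controls carried the cassette and received the drug too. Nestin-Cre acts in neural progenitors and therefore also in the neurons born from them, and the labels do not give the number of embryos per library. Values of the libraries are given in the order i4F-Nes replicates 1 and 2, then CTR replicates 1 and 2.

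Cortical projection neurons are born near the ventricle, pass through a multipolar stage in the intermediate zone, turn bipolar and then climb along radial glia to their layer. Unc5d is known from multipolar cells of the subventricular and intermediate zones, where it binds netrins and the FLRT adhesion proteins and acts as a repulsive receptor. Rnd2 is a small GTPase, a target of proneural factors, that promotes the step out of the multipolar stage. Neuropilin 1 (Nrp1) is the ligand-binding part of the receptor for class 3 semaphorins, the family to which Sema3c belongs, and Pdzrn3 is a ubiquitin ligase with PDZ domains.

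On GRCm38, GENCODE M21 places Unc5d on the minus strand at chr8:28646717-29219636, Sema3c on the plus strand at chr5:17574281-17730268 and Rnd2 on the plus strand at chr11:101464999-101471853. Pdzrn3 lies on the minus strand at chr6:101149609-101377897 and Nrp1 on the plus strand at chr8:128358604-128503363. All 5 are protein-coding genes. The 250 bases before the start that RefSeq gives on GRCm38.p6 for 3 of these genes are shown because the cells were chosen partly by the bHLH factors Neurod1 and Neurod6, whose family binds the E-box CANNTG. RefSeq starts Sema3c and Nrp1 downstream of the GENCODE start, so these windows lie inside the genes as GENCODE places them. Capitals mark each CANNTG in the strand of the gene.
Sema3c, plus strand, chr5:17574566-17574815: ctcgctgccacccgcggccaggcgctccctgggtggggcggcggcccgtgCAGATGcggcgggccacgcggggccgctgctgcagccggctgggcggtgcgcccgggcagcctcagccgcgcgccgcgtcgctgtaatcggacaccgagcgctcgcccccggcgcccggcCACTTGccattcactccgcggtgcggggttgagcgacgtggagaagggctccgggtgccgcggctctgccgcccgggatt
Pdzrn3, minus strand, chr6:101377898-101378147: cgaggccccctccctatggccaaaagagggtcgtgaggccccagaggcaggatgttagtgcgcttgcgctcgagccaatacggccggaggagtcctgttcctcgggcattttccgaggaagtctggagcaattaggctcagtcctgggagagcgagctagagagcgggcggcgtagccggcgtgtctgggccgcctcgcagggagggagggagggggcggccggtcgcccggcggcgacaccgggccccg
Nrp1, plus strand, chr8:128358823-128359072: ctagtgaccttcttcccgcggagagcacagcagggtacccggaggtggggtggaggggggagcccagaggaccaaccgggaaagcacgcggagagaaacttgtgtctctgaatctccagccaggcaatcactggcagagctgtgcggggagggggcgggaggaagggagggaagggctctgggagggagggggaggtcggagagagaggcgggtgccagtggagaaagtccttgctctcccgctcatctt
The Sema3c window held 2 E-boxes, of which 1 reads CAGATG, and no CANNTG stood in the other windows. The motif CANNTG, which reads as CANNTG on both strands, is in 66.2% of the 32851 promoter windows of this length in the table, and CAGATG on either strand, which is also a CANNTG, is in 14.4%. A match is a string of letters and no measured binding site.

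The members numbered 735 and 584 in the i4F-Nes libraries and 557 and 823 in the CTR libraries. Their summed depth was 10479282, 6623989, 9309114 and 10614843 UMIs, and their median depth per cell was 13014, 10609.5, 14875 and 11180 UMIs. In the whole libraries the median depth was 15629, 11697, 15565.5 and 11999 UMIs per kept barcode. Pairs of libraries shared 11 to 21 barcode sequences, and no member barcode was shared. Xist, the RNA of the inactive X chromosome, was at 877, 1151, 0.107 and 1155 CPM (a UMI count divided by the summed UMIs of the same cells, times 1000000) in the members, so CTR replicate 1 stood apart in this gene. Replicates of a group differed far beyond sampling noise, with a chi-square per degree of freedom of 15.1 between the i4F-Nes libraries and 18.1 between the CTR libraries.

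A median member held 33, 26, 30 and 24 UMIs of Unc5d, far above the minimum of 3, and a median of 2 UMIs of Sema3c in every library. Of the 28672 barcodes, 12564 reached 3 UMIs of Unc5d and 6696 of these also had Sema3c. The limit on Neurod1 then reduced the number to 3586. Few cells lay at the Unc5d threshold: 15, 32, 6 and 26 cells met every other condition with exactly 2 UMIs of Unc5d, against 19, 21, 10 and 21 members with exactly 3. Nrp1 was at 281, 260, 329 and 542 CPM in the cells with 2 UMIs of Unc5d and at 331, 452, 503 and 450 CPM in those with 3. It was higher above the threshold in 3 libraries and lower in CTR replicate 2.

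The members made up 9.05% of the kept barcodes of i4F-Nes replicate 1 (exact binomial 95% interval 8.43% to 9.69%) and 8.43% of replicate 2 (7.78% to 9.10%). They made up 8.63% of CTR replicate 1 (7.95% to 9.34%) and 11.5% of CTR replicate 2 (10.8% to 12.3%). CTR replicate 2 was thus above the other 3 libraries, and CTR replicate 1 lay between the i4F-Nes libraries. The group means were 8.74% ± 0.439 (SD, n = 2) and 10.1% ± 2.03 (SD, n = 2), and the exact two-sided permutation test gave p = 0.667, where the 6 possible splits allow no p below 0.333. Without CTR replicate 2 the difference i4F-Nes minus CTR changed from -1.32 to 0.108 percentage points. Intervals cover counting error only.

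To place these neurons, 3 other sets of Neurod6-positive, Gad2-negative neurons were taken from the same libraries with the same limits on Eomes, Krt8, Cytl1 and Lbhd2. The 1628 Neurod1-high neurons had at least 3 UMIs of Neurod1, the factor of newly born neurons, and at most 1 of Hs3st4. The 3748 Hs3st4-high neurons had at least 3 UMIs of Hs3st4, a heparan sulfate enzyme of deep-layer neurons, and at most 1 of Neurod1. The 3868 Unc5d-negative neurons met the limits of the members but had no UMI of Unc5d or Sema3c. Genes that accompany Unc5d in a cell follow from this choice of cells, so the counts below say how broadly the sets differ and nothing more is read from them. The Unc5d-negative neurons of i4F-Nes replicate 2 had a median depth of 5194 UMIs, against 14364.5 to 17104 in the other libraries.

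The 3 markers that did not choose the cells were all higher in the members than in the Unc5d-negative and Hs3st4-high neurons. Against the Neurod1-high neurons they were mixed, as given below. Rnd2 was at 309, 169, 344 and 189 CPM in the members, against 66.3, 53.4, 59.2 and 17.3 CPM in the Unc5d-negative neurons and 16.8 to 34.4 CPM in the Hs3st4-high neurons. Every library of the members lay above every library of those sets, and in both groups replicate 1 was the higher one. Pdzrn3 was at 218, 182, 243 and 178 CPM in the members and at 12.6 to 23.9 CPM in the Unc5d-negative neurons. Nrp1 was at 898, 890, 785 and 830 CPM in the members and at 110 to 161 CPM in the Unc5d-negative neurons, again without overlap. Against the Unc5d-negative neurons the log2 fold changes were 2.46 ± 0.355 (SE) for Rnd2, 3.51 ± 0.0754 for Pdzrn3 and 2.58 ± 0.0887 for Nrp1. That set lacks Unc5d and Sema3c by definition, so these changes are a description and no independent support for the markers. The labels give no direct evidence of movement, so the word migrating rests on what these markers are known for.

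**Figure D1:**
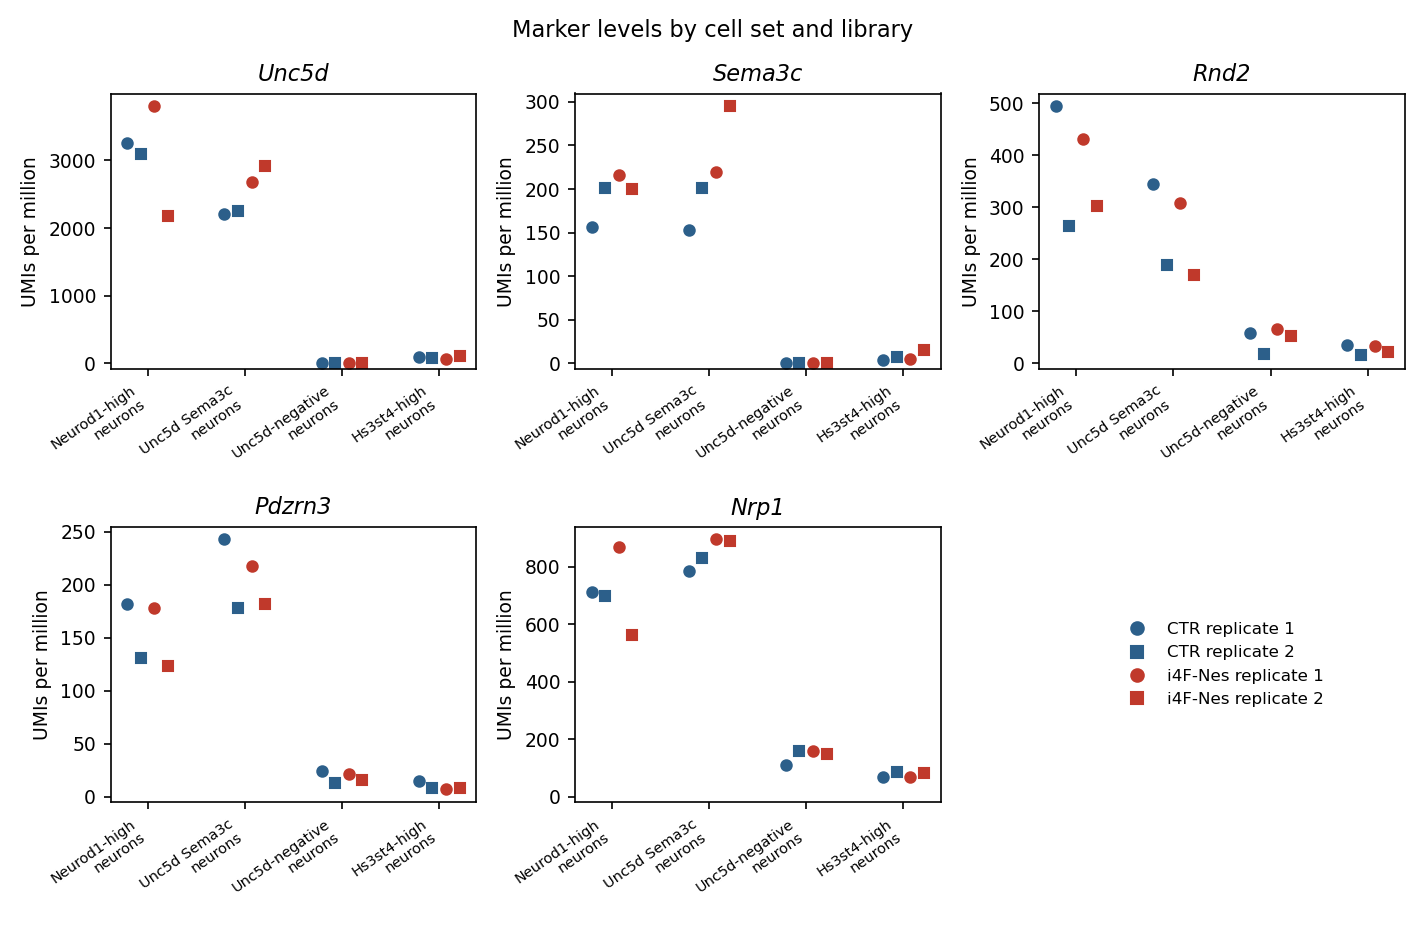
Levels of the 5 markers in CPM (linear axes) in 4 sets of neurons, 1 point per library, with colour for the group and shape for the replicate. Unc5d and Sema3c were used to choose the cells, and are 0 by definition in the Unc5d-negative set; Rnd2 is highest in the Neurod1-high neurons, at 264 to 495 CPM.

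After thinning each cell to 5000 UMIs, Nrp1 was detected in 93.9%, 93.3%, 94.0% and 93.9% of members. It was detected in 6.49% to 14.6% of Gad2-positive interneurons, given for comparison. Whether the interneurons express Nrp1 or Rnd2 themselves was not tested. Rnd2 was detected in 62.9%, 42.2%, 71.1% and 50.3% of thinned members, against 8.38% to 14.7% of the interneurons. Thinning left out 12, 93, 7 and 42 shallower members, and without thinning Rnd2 was detected in 80.3%, 52.9%, 89.4% and 67.3%. The interneurons were shallower, with median depths of 6230 to 7731 UMIs before thinning. Interneuron genes were near 0 in the members: Gad1 was seen in at most 0.407% of the thinned members of any library, against 70.7% or more of the interneurons.

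The Unc5d-negative set was chosen to lack Unc5d and Sema3c and the Hs3st4-high set to hold Hs3st4. No limit on Unc5d or Sema3c was put on the Neurod1-high set, so the order below follows in part from these choices. Fewest genes differed from the Neurod1-high neurons. Of 12715 genes tested, 977 (7.68%) differed, 496 higher (3.90%) and 481 lower (3.78%) in the members, and 19 of the higher (0.149%) and 96 of the lower (0.755%) by at least 2-fold. Against the Unc5d-negative neurons 7147 of 13413 genes differed (53.3%; 3807 or 28.4% higher, 3340 or 24.9% lower), of which 526 (3.92%) were higher and 1039 (7.75%) lower by at least 2-fold. Against the Hs3st4-high neurons it was 8236 of 13309 (61.9%; 4200 or 31.6% higher, 4036 or 30.3% lower), of which 1064 (7.99%) were higher and 1427 (10.7%) lower by at least 2-fold. These tests were edgeR quasi-likelihood fits of UMI sums with the library as a block, called at a Benjamini-Hochberg adjusted p under 0.05. The count against the Neurod1-high neurons rose to 1833 without i4F-Nes replicate 2 and fell to 443, 461 and 514 without i4F-Nes replicate 1, CTR replicate 1 and CTR replicate 2.

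Both Rnd GTPases and part of the intermediate progenitor genes were lower in the members than in the Neurod1-high neurons. Neurod1 was held to at most 1 UMI in the members and to at least 3 in that set. The direction for genes that accompany Neurod1 is therefore partly set by the choice of cells. Rnd2 was at 431, 303, 495 and 264 CPM in the Neurod1-high neurons, so each library's members had less. Its log2 fold change was -0.57 ± 0.0647 (adjusted p = 0.00021). Rnd3, the related GTPase that restrains RhoA signalling, was at 28.8, 24.8, 33.0 and 34.5 CPM in the members and at 75.2 to 88.2 CPM in the Neurod1-high neurons (-1.38 ± 0.0993). Sstr2, a somatostatin receptor of intermediate progenitors and young neurons, was at 132, 74.9, 135 and 77.2 CPM against 253, 122, 296 and 148 CPM (-0.93 ± 0.0668). The neuron-derived HLH gene Nhlh1 was also lower (-1.35 ± 0.139), as were the intermediate progenitor gene Mfap4 (-1.37 ± 0.0889), the synapsin Syn2 (-1.23 ± 0.0925) and the cadherin Cdh10 (-1.11 ± 0.13). Of 8 intermediate progenitor genes tested, none was higher and 4 were lower: Sstr2, Mfap4, Btg2 and Elavl2. Among all genes 3.90% were higher and 3.78% lower in this comparison.

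Pdzrn3 ran the other way and was higher in the members than in the Neurod1-high neurons (0.43 ± 0.0554, adjusted p = 0.00049), which had 178, 124, 182 and 131 CPM. Nrp1 was at 869, 565, 713 and 700 CPM there, and its difference of 0.28 ± 0.0949 missed the threshold (adjusted p = 0.15). The bicarbonate transporter Slc4a4 was at 118, 110, 138 and 141 CPM in the members and 44.0, 34.5, 44.4 and 55.0 CPM in the Neurod1-high neurons (1.52 ± 0.0682). The adhesion gene Ntm, or neurotrimin, was at 556 to 702 CPM against 247 to 322 CPM (1.14 ± 0.133). The Wnt agonist Rspo3 (1.15 ± 0.111), the receptor phosphatase Ptprz1 (1.10 ± 0.0584), the adaptor Dok6 (1.09 ± 0.0718) and the cadherin Cdh12 (1.01 ± 0.0617) were higher as well. None of the 20 microtubule genes of young neurons passed the test in either direction, where 7.68% of all genes did. Of the 20, 3 had an unadjusted p under 0.05.

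Against the Hs3st4-high neurons, most upper-layer genes were higher and most deep-layer genes lower in the members. Hs3st4, itself a gene of deep-layer neurons, was held low in the members and high in that set. The direction of this contrast is therefore partly set by the choice of cells. Cux2, a factor of the upper layers, was at 327, 342, 280.5 and 247 CPM, close to the 252 to 330 CPM of the Neurod1-high neurons (0.13 ± 0.0731, adjusted p = 0.38). In the Unc5d-negative neurons Cux2 was at 34.8 to 52.5 CPM and in the Hs3st4-high neurons at 12.7 to 18.3 CPM. Cux1, its paralog, was higher than in all 3 sets (0.51 ± 0.0495 against the Neurod1-high, 1.73 ± 0.116 against the Unc5d-negative and 3.48 ± 0.0866 against the Hs3st4-high neurons).

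Of 18 upper-layer genes, 13 were higher and 3 lower than in the Hs3st4-high neurons (31.6% and 30.3% of all genes). Their median log2 difference was 2.41, where the median of all genes was 0.011. The POU factors Pou3f2 and Pou3f3 (2.64 ± 0.0702 and 2.39 ± 0.0533) and the LIM factor Lhx2 (3.40 ± 0.0599) were among those higher. The exceptions included Mef2c, a factor of maturing neurons, at 139, 240, 114 and 275 CPM against 994 to 1666 CPM (-3.01 ± 0.15), and Rorb, a layer 4 factor, at 32.9 to 64.5 CPM against 254 to 865 CPM (-3.53 ± 0.183). Against the Unc5d-negative neurons 9 of the 18 were higher and 6 lower (28.4% and 24.9% of all genes). Against the Neurod1-high neurons 3 were higher and 3 lower (3.90% and 3.78% of all genes).

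Of 16 deep-layer genes, 14 were lower and 1 higher than in the Hs3st4-high neurons (30.3% and 31.6% of all genes), with a median of -2.74. Fezf2, which specifies subcerebral neurons, was at 52.0, 28.1, 82.3 and 49.9 CPM against 221 to 378 CPM (-2.61 ± 0.148). Tle4, a layer 6 corepressor, was at 69.0 to 84.8 CPM against 682.5 to 950 CPM (-3.45 ± 0.138), and Zfpm2 (-5.61 ± 0.425) and Ldb2 (-2.57 ± 0.243) were lower as well. Bcl11b, the CTIP2 factor of subcerebral neurons, stayed measurable at 279, 186, 227 and 160 CPM, against 754 to 922.5 CPM (-2.07 ± 0.142). Against the Unc5d-negative neurons 11 of the 16 were lower and 2 higher (24.9% and 28.4% of all genes). Tle4 and Foxp2 were the 2 that were higher there (0.96 ± 0.0924 and 0.46 ± 0.0746). Against the Neurod1-high neurons 1 of the 16 was higher and 3 lower (3.90% and 3.78% of all genes).

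In members thinned to 5000 UMIs, Bcl11b was detected in 65.3%, 49.3%, 57.3% and 47.6%, higher in replicate 1 of each group. Interneurons express Bcl11b themselves and give no background for it. Fezf2 was detected in 10.2% to 28.5% of the thinned members.

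**Figure D2:**
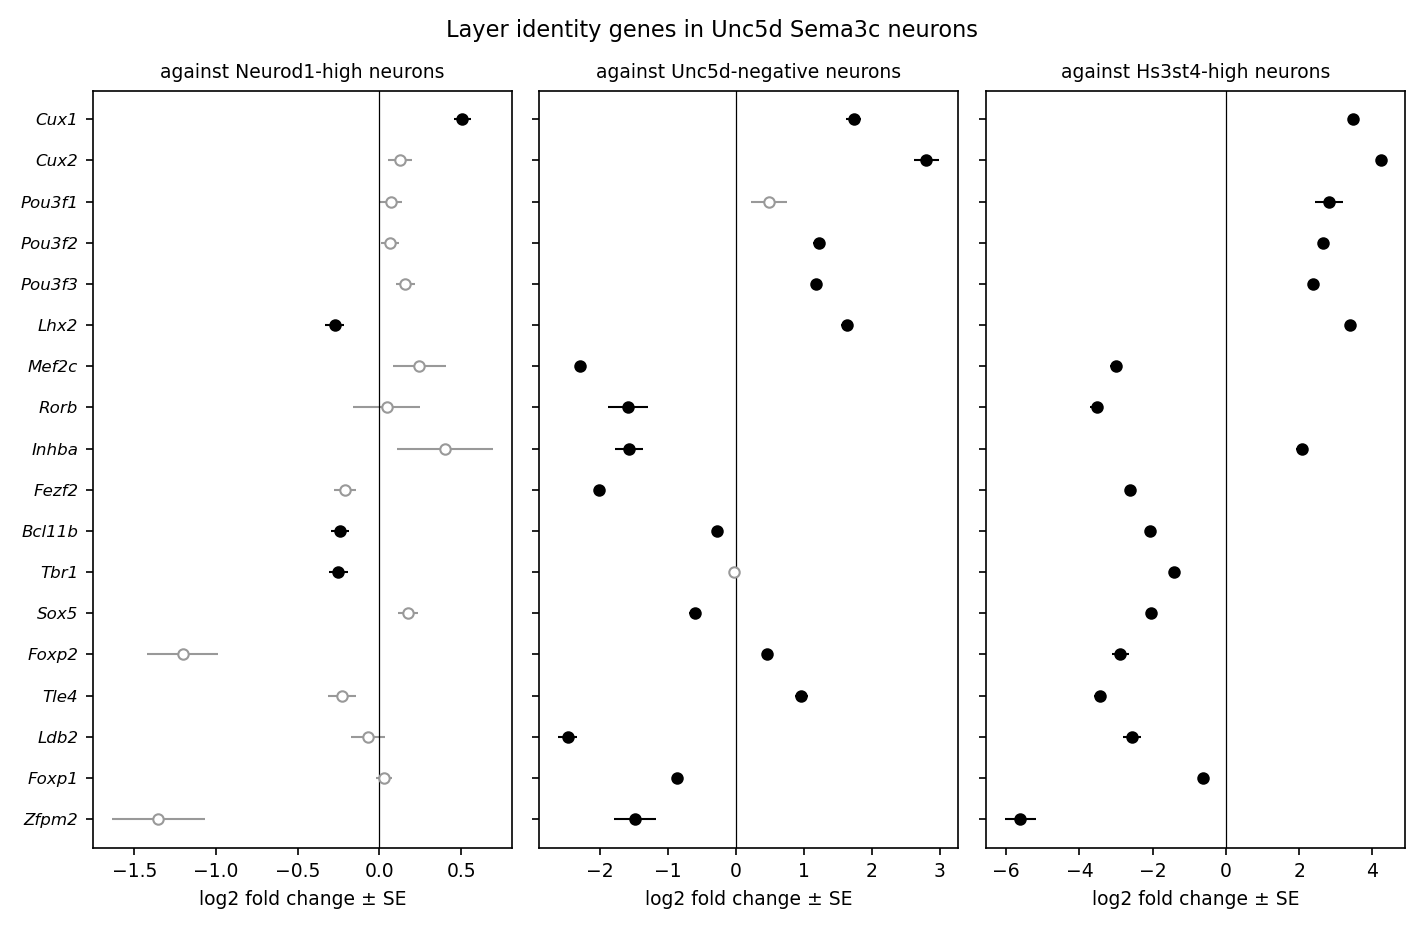
Log2 fold change of layer identity genes in the members against 3 other sets of neurons, with bars for 1 SE; each panel has its own linear axis. Filled black points had an edgeR adjusted p under 0.05 and open grey points did not. Cux2 stands at 4.24 against the Hs3st4-high neurons and Zfpm2 at -5.61.

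Receptors and ligands of axon guidance differed from the other sets in both directions. Their counts stand against 61.9% of all genes that differed from the Hs3st4-high neurons, 53.3% from the Unc5d-negative and 7.68% from the Neurod1-high ones. Among 16 genes of netrin, Unc5 and FLRT signalling tested against the Hs3st4-high neurons, Unc5d itself left out, 6 were higher and 4 lower. The other Unc5 receptors were scarce, with Unc5a at 4.99 to 7.84 CPM, Unc5b at 2.92 to 6.98 CPM and Unc5c at 5.26 to 19.3 CPM in the members. Unc5c was lower than in the Unc5d-negative neurons (-1.52 ± 0.115), where it was at 11.9 to 46.7 CPM, and Unc5b was higher (1.09 ± 0.204). Dcc, the attractive netrin receptor, was at 1190, 1388, 1058 and 1265 CPM and did not pass the test against any of the 3 sets (adjusted p = 0.13, 0.062 and 0.37). Neo1, its relative neogenin, was at 198 to 215 CPM and higher than in the Unc5d-negative (0.63 ± 0.0626) and Hs3st4-high neurons (1.19 ± 0.174).

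The FLRT genes, whose products are Unc5d ligands, were split. Flrt3 was at 96.9, 93.3, 162 and 125 CPM in the members, above the 47.2 to 69.1 CPM of the Unc5d-negative and the 12.5 to 26.8 CPM of the Hs3st4-high neurons (1.05 ± 0.0654 and 2.54 ± 0.0977). Flrt1, at 52.3 to 71.4 CPM, was also higher than in both (1.42 ± 0.136 and 1.09 ± 0.0753). Flrt2, at 66.2 to 70.8 CPM, was lower than in both (-0.45 ± 0.0784 and -1.41 ± 0.0663). Against the Neurod1-high neurons Flrt3 and Flrt2 were higher (0.63 ± 0.0592 and 0.41 ± 0.0713), as was Dscam, another netrin receptor (0.67 ± 0.0738), and Unc5c was lower (-0.70 ± 0.143). The secreted netrin Ntn1 was at 0.215 to 1.81 CPM in the members.

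Of 20 semaphorin, plexin and neuropilin genes, 10 were higher and 7 lower than in the Hs3st4-high neurons. Against the Unc5d-negative neurons 9 were higher and 5 lower, and against the Neurod1-high neurons 1 was higher and 2 lower. Plxna4, a plexin that signals together with neuropilins, was at 1176, 1170, 942 and 902 CPM in the members and 79.1 to 116 CPM in the Hs3st4-high neurons (3.47 ± 0.206). Plxna2 was at 622 to 759 CPM and rose by 1.47 ± 0.0669 over the Unc5d-negative neurons. The ligands were mixed: Sema6d, at 352, 313, 319 and 260 CPM, was higher than in the Unc5d-negative neurons (2.16 ± 0.121) and Sema3a was too (1.14 ± 0.0765), while Sema6a (-1.14 ± 0.159) and Sema3f (-0.85 ± 0.132) were lower. Nrp2, the second neuropilin, was at 28.6, 18.4, 26.0 and 14.1 CPM and was lower than in the Neurod1-high neurons (-1.35 ± 0.0874). Plxna4 (0.01 ± 0.109), Plxna2 (0.08 ± 0.0561), Sema6d (0.15 ± 0.0489) and Sema3a (0.04 ± 0.127) did not pass against that set.

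Robo and slit genes were split. Robo2 was at 4664, 4894, 3614 and 4192 CPM in the members against 1116 to 1568 CPM in the Unc5d-negative neurons (1.71 ± 0.0828), while Robo1, at 335 to 783 CPM, was lower than there (-1.01 ± 0.0946). Slit2 was at 49.6, 65.4, 64.2 and 68.8 CPM against 2.40 to 5.25 CPM in the Hs3st4-high neurons (3.97 ± 0.102). Slit1 showed the reverse, at 2.58 to 3.67 CPM against 90.8 to 128 CPM (-5.11 ± 0.111). Among ephrin receptors, Epha3 was at 1621, 1571, 1345 and 1319 CPM against 246 to 372 CPM in the Unc5d-negative neurons (2.29 ± 0.135), and Epha5 rose by 1.83 ± 0.0662. Robo2 (0.38 ± 0.105), Epha3 (0.07 ± 0.0952) and Epha5 (0.08 ± 0.106) did not pass against the Neurod1-high neurons. Ephb1 was lower than in the Hs3st4-high neurons (-4.25 ± 0.179). Of the 20 genes in this group, 9 were higher and 9 lower than in the Hs3st4-high neurons, 9 higher and 8 lower than in the Unc5d-negative ones, and 3 higher and 2 lower than in the Neurod1-high ones.

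**Figure D3:**
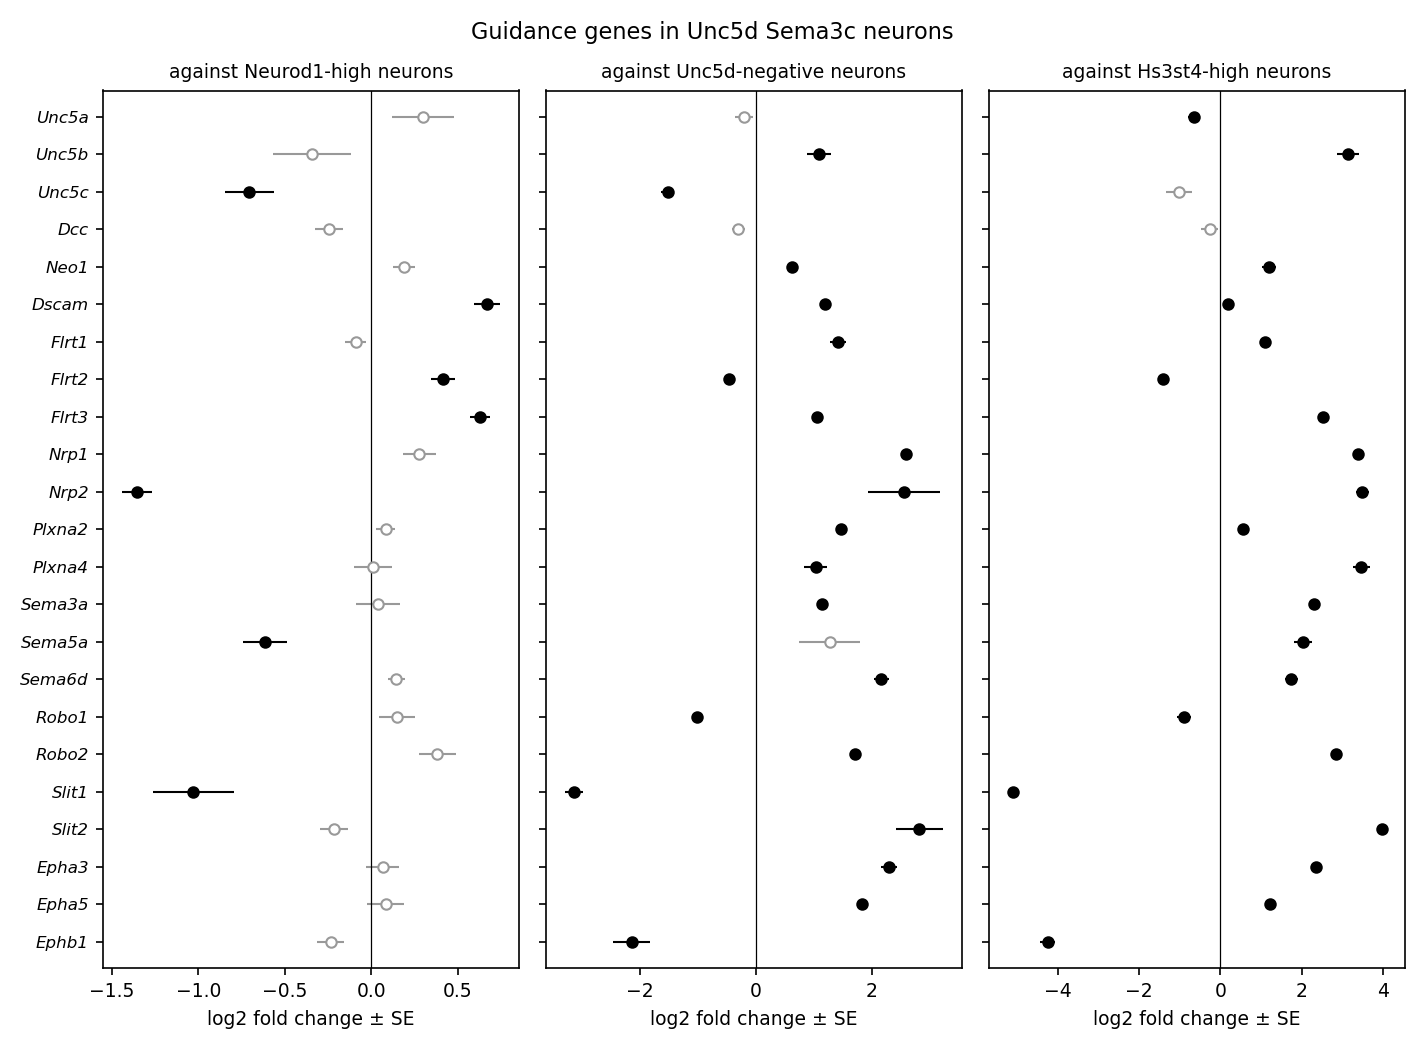
Log2 fold change of guidance receptors and ligands in the members against 3 other sets of neurons, with bars for 1 SE; each panel has its own linear axis. Filled black points had an edgeR adjusted p under 0.05 and open grey points did not. Slit2 (3.97) and Slit1 (-5.11) lie at opposite ends against the Hs3st4-high neurons.

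For genes of the radial migration machinery the share called was near that of all genes (61.9%, 53.3% and 7.68% in the order below), apart from the last set. Of 28 genes, 9 were higher and 6 lower than in the Hs3st4-high neurons, 7 higher and 9 lower than in the Unc5d-negative ones, and 1 higher and 5 lower than in the Neurod1-high ones. Dcx, the microtubule protein doublecortin, was at 476, 579, 498 and 547 CPM and differed by 0.05 ± 0.0457 from the Hs3st4-high neurons (adjusted p = 0.35). Cdk5, a kinase of migrating neurons, was at 35.2 to 48.1 CPM and differed by -0.02 ± 0.063 (adjusted p = 0.79). Plcb1, a phospholipase C, was at 1292, 1036, 1158 and 872 CPM against 109 to 203 CPM in the Unc5d-negative neurons (2.91 ± 0.209). It was lower than in the Neurod1-high neurons (-0.40 ± 0.0736, edgeR adjusted p = 0.011). The cell cycle inhibitor Cdkn1b rose by 1.35 ± 0.056 over the Hs3st4-high neurons.

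In the reelin pathway, which stops migration below the pial surface, the receptor Lrp8 and the adaptor Dab1 went in opposite directions. Lrp8 was at 222, 179, 162 and 160 CPM and was higher than in the Unc5d-negative (1.10 ± 0.0698) and Hs3st4-high neurons (1.05 ± 0.081). These are the sets in which the directions were opposite. Against the Neurod1-high neurons Lrp8 did not pass (-0.26 ± 0.0809). Dab1 was at 546, 618, 487 and 653 CPM and was lower than in the Unc5d-negative and Hs3st4-high neurons (-1.24 ± 0.0832 and -1.69 ± 0.0742). It was higher than in the Neurod1-high neurons (0.64 ± 0.0931). Vldlr, the other reelin receptor, was at 16.5 to 23.55 CPM and lower than in the Unc5d-negative and Hs3st4-high sets (-0.99 ± 0.0754 and -1.64 ± 0.0747). Over the 11 genes tested, 7 were higher and 2 lower than in the Unc5d-negative neurons (28.4% and 24.9% of all genes). Against the Hs3st4-high ones 3 were higher and 3 lower (31.6% and 30.3% of all genes). Against the Neurod1-high ones 1 was higher and none lower (3.90% and 3.78% of all genes).

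Cell adhesion genes also split. Of 20 genes, 9 were higher and 10 lower than in the Hs3st4-high neurons (31.6% and 30.3% of all genes). Against the Neurod1-high neurons 3 were higher and 3 lower (3.90% and 3.78% of all genes). Cdh4, or R-cadherin, was at 548, 459, 345 and 294 CPM and higher than in the Unc5d-negative (2.22 ± 0.0915) and Hs3st4-high neurons (1.38 ± 0.0978). It did not pass against the Neurod1-high neurons (-0.0034 ± 0.0589). Cntn2, the axonal protein TAG-1, was higher than in all 3 sets, by 0.73 ± 0.0557 against the Neurod1-high, 0.88 ± 0.0974 against the Unc5d-negative and 1.22 ± 0.105 against the Hs3st4-high neurons. Cntn1 (-4.06 ± 0.194), Cdh13 (-3.27 ± 0.0823) and Nrcam (-2.01 ± 0.0652) were lower than in the Hs3st4-high neurons. Cdh2, or N-cadherin, was at 572.5 to 735 CPM and differed by 0.06 ± 0.069 from the Unc5d-negative neurons (adjusted p = 0.46).

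Neuronal differentiation factors were mostly higher than in the Unc5d-negative and Hs3st4-high sets. Of 21 tested, 13 were higher and 4 lower than in the Hs3st4-high neurons (31.6% and 30.3% of all genes). Against the Unc5d-negative neurons 12 were higher and 2 lower (28.4% and 24.9% of all genes). Against the Neurod1-high neurons 3 were higher and 4 lower (3.90% and 3.78% of all genes). Insm1, a zinc finger factor of newly born neurons, was at 260, 211.5, 185 and 214 CPM, against 46.1 to 64.4 CPM in the Unc5d-negative and 21.6 to 31.8 CPM in the Hs3st4-high neurons (2.02 ± 0.0675 and 2.95 ± 0.121). The repressor Scrt2, of the Snail family, followed the same order (1.59 ± 0.068 and 2.06 ± 0.061). Against the Neurod1-high neurons Insm1 did not pass (0.07 ± 0.0606) and Scrt2 was lower (-0.34 ± 0.0654). Myt1l, which represses non-neuronal genes, was higher than in all 3 sets, at 2033, 2050, 1772 and 1821 CPM against 1234 to 1574 CPM in the Neurod1-high neurons (0.44 ± 0.0462). Nfia, a factor linked to deep layers and glia, was lower than in the Hs3st4-high neurons (-1.31 ± 0.039).

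Most microtubule genes were lower than in these sets. Of 20 microtubule genes, 16 were lower and 3 higher than in the Hs3st4-high neurons (30.3% and 31.6% of all genes). Against the Unc5d-negative neurons 13 were lower and 2 higher (24.9% and 28.4% of all genes). Mapt, which encodes tau, was at 324, 349.5, 253 and 351 CPM and was lower by -1.76 ± 0.0527 and -1.46 ± 0.0703 in the same order. Gap43, of growing axons, was at 166 to 190 CPM (-1.62 ± 0.0622 against the Hs3st4-high neurons). Of 21 synapse and channel genes, 13 were lower and 5 higher than in the Hs3st4-high neurons (30.3% and 31.6% of all genes). Those lower included the NMDA receptor subunit Grin2b (-3.61 ± 0.314), the adhesion gene Nlgn1 (-2.70 ± 0.112) and the sodium channel Scn2a (-2.22 ± 0.0867).

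An early glutamate transporter ran against this. Slc17a6, the vesicular transporter VGLUT2, was at 144, 203, 104 and 162 CPM in the members, 8.01 to 21.1 CPM in the Unc5d-negative and 5.57 to 7.81 CPM in the Hs3st4-high neurons (3.47 ± 0.24 and 4.41 ± 0.0938). It did not pass against the Neurod1-high neurons (-0.44 ± 0.16). Slc17a7, or VGLUT1, was at 11.6 to 27.9 CPM and was lower than in the Hs3st4-high neurons (-0.94 ± 0.0982). The largest falls against the Hs3st4-high neurons were those of the kainate receptor Grik3, at 2.45 to 4.68 CPM against 224 to 309 CPM (-6.33 ± 0.0839), the protease Pcsk5 (-6.11 ± 0.2) and the PDZ protein Pdzd2 (-6.00 ± 0.0934). The rises were smaller and included those of Zfhx4, a zinc finger homeobox factor (4.34 ± 0.0781), Sstr2 (3.86 ± 0.151) and Ndst3, a heparan sulfate enzyme (3.85 ± 0.23).

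Against the Unc5d-negative neurons the largest rises were in Sstr2 (4.25 ± 0.185), Ndst3 (4.12 ± 0.175) and the potassium channel Kcnc2 (3.65 ± 0.15). Ndst3 was at 291, 315, 190 and 230 CPM in the members and 10.7 to 25.2 CPM there. Kirrel3, an adhesion protein of the immunoglobulin family, was at 176, 227, 94.5 and 167 CPM against 955 to 1466 CPM (-2.88 ± 0.335), and the centrosomal gene Nin was also lower (-2.96 ± 0.185). Of 8 endothelial and mural genes tested in this comparison all 8 were lower in the members, as were 7 of 14 radial glia genes. Among all genes 24.9% were lower. The Unc5d-negative set thus had more RNA of these endothelial, mural and radial glia genes than the members. Of 5 erythroid genes tested none passed in either direction. The part that RNA of other cell types had in these and the other differences was not tested.

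Markers of other cell types in the members were low with exceptions. The summed level of 9 endothelial and mural genes was 2.17 to 9.88 CPM, of 8 microglial genes 1.61 to 23.2 CPM and of 12 interneuron genes 18.7 to 39.6 CPM. The summed level of 14 radial glia genes was 1165 to 1411 CPM, against 2106 to 2807 CPM in the whole libraries. In the members the highest of the 14 were Ptprz1, Fabp7 and Vim, at means of 619, 319 and 141 CPM. Sox2 and Hes1 were at means of 17.2 and 13.0 CPM. Of these 14, 11 were higher than in the Hs3st4-high neurons, where 31.6% of all genes were higher. Mki67, a gene of cycling cells, was detected in 2.73% to 5.09% of the thinned members and in 1.80% to 7.32% of thinned interneurons. The 7 erythroid genes summed to 1344, 12.8, 199 and 1185 CPM. In CTR replicate 2, the 3 members with the most UMIs of Hbb-bs held 99.2% of them, and in i4F-Nes replicate 1 they held 95.4%, so this signal came from a few barcodes. Barcodes with the highest doublet scores included 4.63%, 6.34%, 3.77% and 5.95% of the members, and these were kept.

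The members also varied among themselves along the level of Unc5d. They were divided in each library into 3 groups of equal number by Unc5d UMIs per total UMIs, and the low and high groups are given as a description. From the low to the high group, Nrp1 rose from 631 to 1165, from 629 to 1322, from 587 to 1065 and from 600 to 1129 CPM. Plcb1 went from 654 to 1951, from 474 to 2176, from 604 to 1922 and from 388 to 1575 CPM. Cux2 went up in every library as well, from 184 to 254 CPM in the low groups to 337 to 550 CPM in the high groups.

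Mef2c went down across the same groups, from 242 to 33.0, from 380 to 84.6, from 190 to 52.2 and from 492 to 57.7 CPM. Mapt went from 462 to 174, from 508 to 167, from 346 to 138 and from 529 to 165 CPM. Dab1 went down as well, from 843 to 246, from 824 to 346, from 716 to 218 and from 987 to 290 CPM. Grin2b was at 145 CPM in the low and 26.0 CPM in the high group of i4F-Nes replicate 1. In i4F-Nes replicate 2 the high group was shallower, with a median depth of 6661 UMIs against 12858 in the low group.

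**Figure D4:**
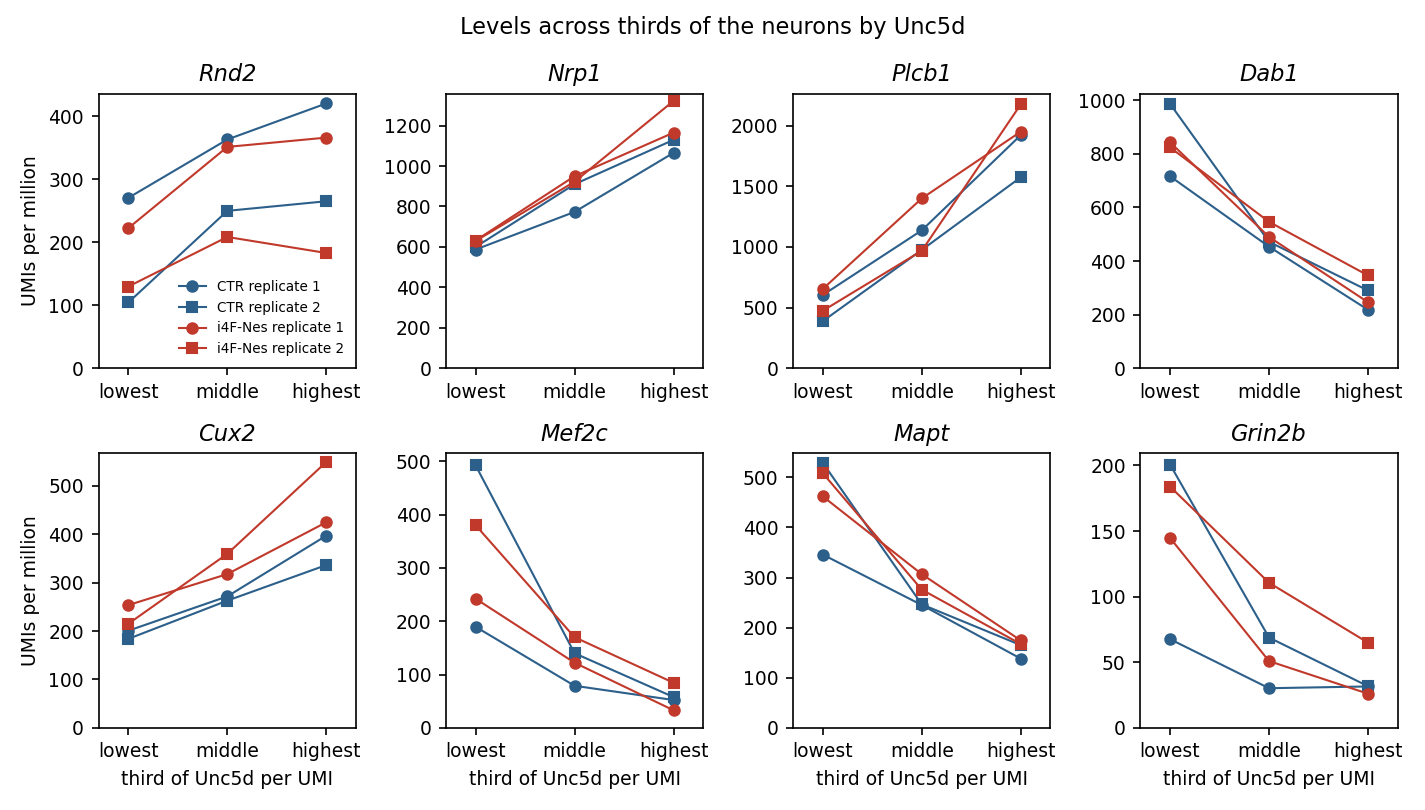
Levels of 8 genes in CPM (linear axes from 0) in the members of each library, divided into 3 groups of equal number by Unc5d per total UMIs; lines join the groups of 1 library. Nrp1, Plcb1 and Cux2 go up from left to right in all 4 libraries and Mef2c, Mapt and Dab1 go down.

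Members with 1 UMI of Neurod1 were compared with those with none in the same way. Sstr2 was at 195 against 95.2, 91.6 against 67.6, 156 against 121 and 99.2 against 64.7 CPM, higher with Neurod1 in every library. Neurod1 is one of the genes that chose the cells, so this is a description.

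Between i4F-Nes and CTR the number of genes called in the members depended on the setting. Without a covariate, edgeR's quasi-likelihood test called 0 of 13110 genes (0%) at an adjusted p under 0.05, and 297 had an unadjusted p under 0.05. DESeq2 on the same sums called 10, of which 8 were higher and 2 lower in i4F-Nes, and edgeR with no filter on low counts called 87. With the replicate number as a block edgeR called 321, of which 211 were higher and 110 lower. The labels do not say that equal replicate numbers pair the libraries. In 30.6% of the genes the libraries of the groups did not overlap, with i4F-Nes above in 19.4% and below in 11.3%. With 2 libraries against 2 there are 6 possible splits. A gene whose libraries stand in random order would show no overlap with a probability of 0.333. The 30.6% is therefore no sign of a difference between the groups. Leaving out i4F-Nes replicate 1 gave 21 calls and leaving out CTR replicate 2 gave 5. Replicates here are libraries, and since nothing says how many embryos each holds, p-values measure the spread between libraries.

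Among the markers, Unc5d was at 2677, 2922, 2206 and 2252 CPM and Sema3c at 219, 295, 153 and 201 CPM, higher in both i4F-Nes libraries, which is given without a test because both genes chose the cells. Rnd2 (-0.18 ± 0.348), Pdzrn3 (-0.10 ± 0.169) and Nrp1 (0.12 ± 0.13) each had an edgeR adjusted p of 0.999. For Rnd2 and Pdzrn3 the groups overlapped, and replicate 1 was above replicate 2 in both groups. Nrp1 was higher in both i4F-Nes libraries than in both CTR libraries, and the difference was smaller than its SE.

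Gria1, the AMPA receptor subunit GluA1, had the lowest p among genes of at least 10 CPM. It was at 105, 98.7, 49.7 and 45.1 CPM, so both i4F-Nes libraries lay above both CTR libraries. Its log2 fold change was 1.08 ± 0.114, with an unadjusted p of 7.2e-05 and an adjusted p of 0.565 by edgeR and an adjusted p of 0.000265 by DESeq2. The change was spread over cells: without thinning, Gria1 was detected in 46.3% and 40.2% of i4F-Nes members and 30.9% and 29.6% of CTR members. Over all kept cells of the libraries Gria1 was at 92.6, 64.7, 94.6 and 119 CPM, where the i4F-Nes libraries were not the higher ones.

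Meg3, a maternally expressed long noncoding RNA, was at 91.9, 116, 50.4 and 38.0 CPM (1.21 ± 0.185, edgeR adjusted p = 0.999, DESeq2 adjusted p = 0.000309). Without the 3 highest cells of each library it was at 81.5, 101, 39.0 and 33.2 CPM. The galectin gene Lgals7 was at 18.1, 19.2, 7.20 and 5.65 CPM (1.51 ± 0.21, edgeR adjusted p = 0.739, DESeq2 adjusted p = 0.0185). In all kept cells Lgals7 was at 297, 268, 6.86 and 5.93 CPM, so it was far more abundant elsewhere in the i4F-Nes libraries than in these neurons. Whether free RNA of those cells raised its level in the members was not tested.

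The other genes with the lowest p missed the threshold too in the fit without a covariate, each with an edgeR adjusted p of 0.999. Each of them passed under at least 1 alternative setting. Ncam2, an adhesion molecule, was at 19.6, 20.8, 7.30 and 8.86 CPM (1.29 ± 0.208), and Maml3, a Notch coactivator, at 179, 186, 124 and 97.9 CPM (0.69 ± 0.137). Igsf21 (0.97 ± 0.194), Syt6 (1.10 ± 0.244), Lhfp (0.51 ± 0.114) and Gm32647 (1.24 ± 0.28) were also above CTR in both i4F-Nes libraries. Plk2, a kinase of the polo family, was at 28.7, 22.9, 43.6 and 39.1 CPM and was the one below (-0.70 ± 0.159).

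**Figure D5:**
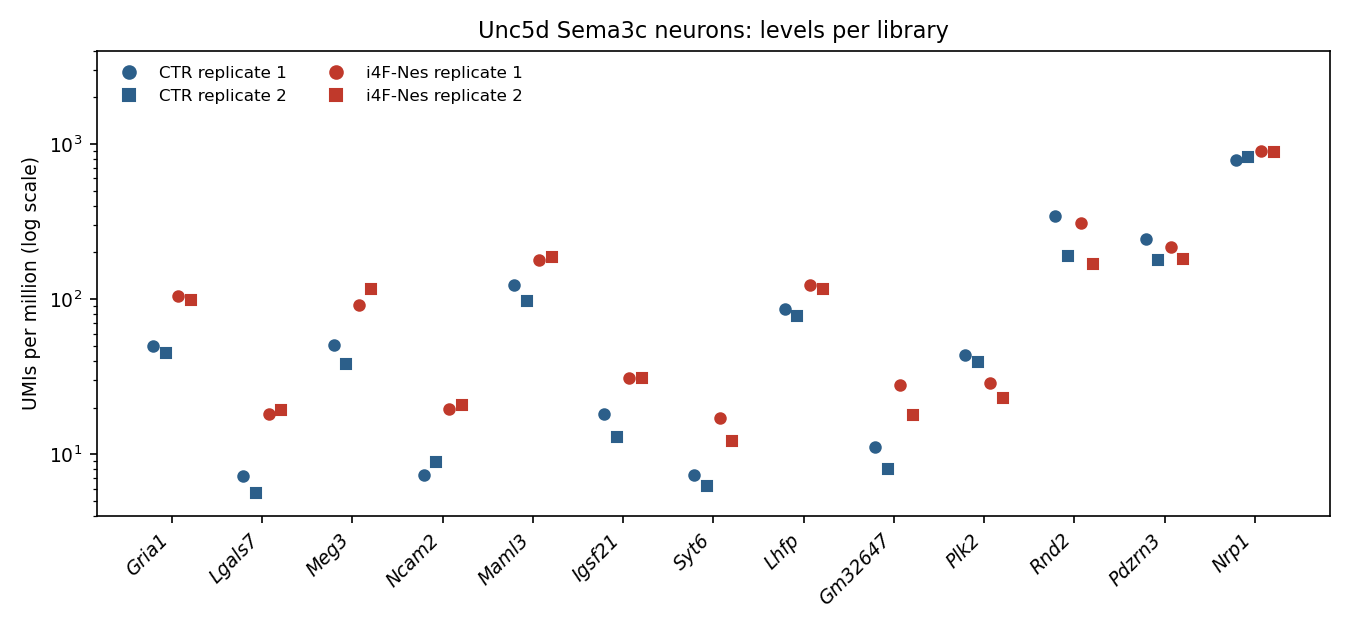
Levels in the members in CPM (log axis) of the 10 genes with the lowest unadjusted p among those of at least 10 CPM, followed by 3 markers, 1 point per library. None passed the edgeR adjusted test without a covariate. The groups do not overlap for the first 10 genes, and for Rnd2 and Pdzrn3 they do.

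Several of the genes that DESeq2 alone called lay in very few cells. Slit3 was at 16.8, 5.28, 0.107 and 0.188 CPM, and the 3 members with the most UMIs of it held 94.9% and 77.1% of them in the i4F-Nes libraries. Without those 3 cells Slit3 was at 0.859 and 1.21 CPM in i4F-Nes. Tafa1, a secreted chemokine-like protein, was detected in 7 members of each i4F-Nes library, and its 3 highest cells held 87.0% and 88.1% of its UMIs. Ebf3, a factor of Cajal-Retzius cells, was at 10.0, 23.4, 3.33 and 1.04 CPM, with 64.8% and 51.6% of the i4F-Nes UMIs in 3 cells. Rmst, a long noncoding RNA, was at 6.01, 7.25, 1.18 and 0.848 CPM, with 50.8% and 77.1% in 3 cells.

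Nr2f2, the factor COUP-TFII, was at 0.477, 0, 6.34 and 3.11 CPM, and in the CTR libraries 3 cells held 89.8% and 97.0% of its UMIs. Reelin (Reln) had the same form, at 4.77, 4.98, 25.5 and 8.76 CPM with 88.2% and 84.9% of the CTR UMIs in 3 cells. Crabp2, a retinoic acid binding protein, was at 6.58, 8.76, 0.967 and 0.942 CPM. It was detected in 45 and 18 i4F-Nes and 9 and 10 CTR members, and 3 cells held 29.0% and 48.3% of its i4F-Nes UMIs. Over all kept cells Crabp2 was at 99.1, 64.1, 0.857 and 0.677 CPM. Fos, the immediate early gene, was at 14.3, 21.4, 73.7 and 29.4 CPM, high in CTR replicate 1 (-1.56 ± 0.439, edgeR adjusted p = 0.999).

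Genes known to mark cells found only in the i4F-Nes libraries summed, over 20 genes, to 72.1, 130, 26.6 and 25.5 CPM in the members and to 1436, 1197, 59.6 and 57.9 CPM in all kept cells. Of the 10 of them tested none passed with edgeR without a covariate, and 9 had both i4F-Nes libraries above both CTR libraries. Among all genes 19.4% lay above without overlap and 11.3% below. The median log2 difference of the 10 was 1.46, where the median of all genes was -0.0028. The list includes Krt8, Cytl1 and Lbhd2, which the choice of cells held to at most 1 UMI together, so the gap between the members and all kept cells is partly set by that choice. That list was chosen on these libraries and is no independent evidence of its direction. The filter on low counts also keeps a gene that is high enough in either group alone. Crabp2, at 6.58 and 8.76 CPM in i4F-Nes and 0.967 and 0.942 CPM in CTR, was kept through i4F-Nes. The count of genes above CTR and the median of this list are therefore partly set by that filter. Of 13 immediate early and dissociation genes none passed the same edgeR test, 5 had the i4F-Nes libraries below CTR and the median was -0.27. Fos, Jun, Jund and Ier2 were highest in CTR replicate 1.

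The induced factors themselves were scarce in the members, a day after doxycycline ended. Pou5f1, which encodes OCT4, was at 2.58, 1.51, 1.93 and 1.41 CPM in the members and at 29.9, 10.9, 1.93 and 1.32 CPM in all kept cells, so the excess of the i4F-Nes libraries lay outside these neurons. Sox2 (-0.25 ± 0.335), Klf4 (-0.94 ± 0.451) and Myc (-0.57 ± 0.424) did not pass either. Whether reads of the cassette were counted with the native genes is not given in the labels. Cdkn1a, the p53 target p21, was at 3.34, 1.96, 0.967 and 1.51 CPM in the members against 44.8, 40.8, 2.23 and 2.84 CPM in all kept cells. None of 10 p53 targets passed with edgeR without a covariate.

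In the edgeR fit without a covariate none of the other lists held a gene that passed between the groups. Among all genes 19.4% lay above CTR without overlap and 11.3% below. Of 18 semaphorin, plexin and neuropilin genes 10 lay above CTR without overlap and 1 below, with a median log2 difference of 0.16. Of 21 synapse and channel genes 8 lay above and 1 below (median 0.26), of 20 adhesion genes 8 above and none below (median 0.15), and of 18 upper-layer genes 7 above and 1 below (median 0.15). Of 16 deep-layer genes 3 lay above and 2 below (median -0.05), and of 28 migration genes 1 above and 4 below (median -0.04). Cdh4 (0.63 ± 0.144) and Flrt3 (-0.62 ± 0.143) had unadjusted p of 0.0045 and 0.0047 and adjusted p of 0.999 by edgeR. Fezf2 was at 52.0 and 28.1 CPM in i4F-Nes and 82.3 and 49.9 CPM in CTR, and its groups overlapped (-0.73 ± 0.326).

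Whether the difference between i4F-Nes and CTR was itself different in the members and in the Unc5d-negative neurons was tested as an interaction. Of 13413 genes 5 passed (0.0373%), 1 (0.00746%) with a more positive and 4 (0.0298%) with a more negative difference in the members. None of the 5 was called without i4F-Nes replicate 1 or without i4F-Nes replicate 2, where the count was 0. Rnd2 (-0.99 ± 0.413), Pdzrn3 (-0.11 ± 0.161) and Nrp1 (-0.05 ± 0.196) did not pass in the main fit, each with an edgeR adjusted p near 1. Rnd2 passed under 2 of 12 alternative settings.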

How the data were processed

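Single-cell 3′ RNA libraries (10x Chromium v3.1), 2 i4F-Nes and 2 CTR, had been made from embryonic mouse neocortex. The deposited values were UMI counts, whole numbers for each gene in each barcode, made by the authors with cellranger 7.0.1 per the file headers. The submitters' processing notes name mm10. Which annotation was used, whether intronic reads counted and whether doublets were removed: not given in the sources used here. The 35255 barcodes were filtered to 28672, and the cells were chosen on raw counts. Doublets were scored with Scrublet in scanpy 1.11.5 and left out only in an alternative.

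Raw counts were summed per library and set of cells and tested with edgeR 4.0.16 (TMM, filterByExpr, robust quasi-likelihood fit), with Benjamini-Hochberg adjustment over all genes except the 10 that chose the cells. Comparisons between sets had the library as a block; the comparison of groups, 2 against 2, had no covariate. DESeq2 1.42.0 was an alternative. SE is the log2 fold change over the root of F. The scripts were tested on simulated data.

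The genes named are the markers, list genes of high level or low p and, per comparison of sets, the 10 higher and 10 lower with the largest change at a mean of at least 50 CPM and 1 sign in all 4 libraries. For the groups they are the 10 with the lowest p at a mean of at least 10 CPM. Genes called by DESeq2 or held by few cells were named after their values were seen. Members, lists and rules were chosen with earlier results of these data known. Detection shares called thinned were computed after thinning cells to 5000 UMIs. The shares of members among kept barcodes, and the detection of genes compared between the groups, used unthinned counts. Coordinates are from GENCODE M21, where all 411 genes looked up matched.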

Additional observations from a re-analysis of the deposited data

Results flagged for a closer look

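In 5 genes the difference between i4F-Nes and CTR passed a test of being different in the Unc5d Sema3c neurons and in the Unc5d-negative neurons (edgeR interaction, adjusted p under 0.05). Crtac1, a cartilage and axon matrix protein, had an interaction of -2.31 ± 0.255 on the log2 scale: the Unc5d Sema3c neurons had 13.0 and 18.3 CPM in i4F-Nes and 20.6 and 7.82 CPM in CTR, the Unc5d-negative neurons 14.1 and 17.6 against 4.16 and 1.58 CPM. The unnamed transcript Gm32647 had -2.99 ± 0.395, with 28.1 and 17.8 against 11.2 and 8.01 CPM in the former and 8.88 and 7.17 against 0.385 and 0.411 CPM in the latter. Nrp2 had -2.41 ± 0.33, with 28.6 and 18.4 against 26.0 and 14.1 CPM and 7.45 and 7.57 against 1.62 and 0.754 CPM. For these genes the larger difference was in the Unc5d-negative set.

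Nr2f2 had an interaction of -4.50 ± 0.607, which rests on few cells, since 89.8% and 97.0% of its UMIs in the Unc5d Sema3c neurons of CTR lay in 3 cells per library. The neuregulin receptor gene Erbb4 had the only positive interaction, 1.90 ± 0.252, with 8.30 and 20.2 against 12.9 and 8.10 CPM in the Unc5d Sema3c neurons and 4.22 and 15.2 against 31.9 and 17.8 CPM in the Unc5d-negative ones. edgeR called no gene without i4F-Nes replicate 1, without i4F-Nes replicate 2 or in cells with at least 5000 UMIs, where 240, 133 and 226 genes had an unadjusted p under 0.05, and DESeq2 on all 4 libraries called 7. The Unc5d-negative neurons of i4F-Nes replicate 2 had a median depth of 5194 UMIs, against 14364.5 to 17104 in the other libraries, and the part of depth in these differences was not tested.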

How the results depend on the processing

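With 2 libraries per group, the count of 0 calls between the groups became 10 with DESeq2, 87 with no filter on low counts and 0 to 21 with 1 library left out. Against the Neurod1-high neurons the count of 977 became 577 with DESeq2 and 443 to 1833 with 1 library left out. The 5 interactions became 36 with no filter, 0 to 130 with 1 library left out, 3 at no more than 5% mitochondrial UMIs, 3 without doublets and 0 in cells with at least 5000 UMIs, which was added with the data in view. The difference in share ranged from -2.76 to 0.108 percentage points with 1 library left out. With 1 library left out, the sign reversed between groups for Rnd2 (-0.66 to 0.28) and Pdzrn3 (-0.28 to 0.11), and in the interaction for Pdzrn3 (-0.33 to 0.0259) and Nrp1 (-0.38 to 0.20). At 5 or more Unc5d UMIs the Nrp1 interaction was 0.0032. For Rnd2 the interaction stayed negative, from -1.44 to -0.65, and it passed the threshold under 2 of 12 alternatives. The alternatives were run for the markers and the genes of largest change only. Of these, all 22 against the Hs3st4-high neurons stayed past the threshold. Among the 23 against the Neurod1-high neurons, 16 that had passed it missed it under at least 1. Nrp1, also among the 23, had not passed it in the main fit. The causes were not tested.

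The labels do not say that equal replicate numbers pair the libraries. Replicate 1 minus replicate 2 correlated between the groups at r = 0.441 over 13116 genes. With the replicate block the comparison of groups gave 321 calls, 211 higher and 110 lower. With no replicate block for the library, the sets differed in 4514 genes against the Unc5d-negative and 63 against the Neurod1-high neurons.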
